A study of Mus musculus with 6 samples.

Results

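The nucleoporin genes encode the proteins of the nuclear pore complex, the channel through the nuclear envelope. Their ribosome footprints were examined in mouse oocytes at the prophase arrest and after meiotic maturation. The members were taken by name from the deposited expression table: every gene named Nup followed by a number, together with Tpr, Pom121, Ndc1, Aaas, Seh1l, Sec13, Ahctf1, Rae1 and Ranbp2, with a mean level above 0. This gave 30 of 22416 genes.

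The data came from Ribo-lite, a low-input form of ribosome profiling that sequences the mRNA fragments protected by ribosomes (RPFs), with 500 oocytes in each of 6 libraries. All oocytes carried the WT genotype and came from ovaries of 4-week-old mice given 5 IU of PMSG, a gonadotropin that stimulates follicle growth, 44 h before collection. WT FGO were fully grown oocytes arrested in prophase with an intact nucleus. WT MII were control oocytes matured in culture to metaphase II. Treat MII were oocytes labelled only as treated at the same stage. According to the study's methods the agent was BYBX, a ligand used there to stabilise RNA G-quadruplexes, and the control oocytes received its solvent DMSO. The study reports that BYBX lowered the rate of polar body emission and that treated oocytes had abnormal spindles. The sources used here do not say whether treated oocytes were selected by polar body for these libraries. Each group held 2 libraries, which the study calls biological replicates. The sources used here do not say whether they were separate pools of oocytes, so p-values measure only the spread between these libraries. All oocytes were pooled before lysis, and fewer translating oocytes and fewer footprints per oocyte cannot be told apart.

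The nuclear pore is built from a few repeating subcomplexes. The Y complex forms the outer rings of the scaffold, the inner ring lies against the pore membrane, transmembrane nucleoporins anchor the structure, and FG nucleoporins fill the channel with disordered repeats that bind transport receptors. Filaments on the cytoplasmic face release exported mRNA, and the basket reaches into the nucleus. In meiosis the envelope breaks down and the pores come apart as the oocyte leaves prophase, and in dividing cells several nucleoporins, the Y complex among them, take on roles at kinetochores and the spindle. Fully grown oocytes make almost no new transcripts, and much of the protein made during maturation comes from stored mRNAs, some of them activated through the cytoplasmic polyadenylation element (CPE) of the 3′-UTR.

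The agent of the treated group is directed at G-quadruplexes, and CPEs are known from maturation, so both kinds of sequence were searched in the annotated mRNA of each member (mm10, GENCODE release 21, sense strand). A G-quadruplex motif, counted as 4 stretches of 3 or more G that are separated by 1 to 7 bases each, was found in the 3′-UTR of 2 of 30 members, Nup188 and Nup62. It was found in the 5′-UTR of 1 of 30, Seh1l, and in the coding sequence of 0 of 30. Among all tested genes the shares with the motif were 10.8% for the 3′-UTR, 7.22% for the 5′-UTR and 4.49% for the coding sequence. The members' 3′-UTRs were shorter, with a median of 446 bases against 889, and their coding sequences were longer, with a median of 2620.5 bases against 1401. The 2 motifs in 3′-UTRs are shown because Nup62 is also the abundant member with the largest difference between WT MII and Treat MII. Capitals mark the runs of G. The Nup62 motif lies at chr7:44830156-44830183 on the plus strand and the Nup188 motif at chr2:30344041-30344063 on the plus strand.
Nup62: GGGGGGaGGGGctccttGGGttgcaGGG
Nup188: GGGcaGGGagccaaGGGGctGGG

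A CPE, searched as TTTTAT or TTTTAAT in the last 100 bases of the 3′-UTR, was present in 8 of the 26 members with a 3′-UTR of that length (30.8%), against 18.7% of all tested genes. These were Ranbp2, Nup35, Nup37, Nup54, Nup62, Nup88, Nup98 and Rae1. Among them, Nup37, Nup62, Nup98 and Rae1 had both WT MII libraries above both WT FGO libraries. Nup54 and Nup88 had both below, Ranbp2 overlapped, and Nup35 was at 0 in both groups. Of all 29 tested members, 13 had both above (44.8%) and 6 both below (20.7%), against 15.3% and 25.8% of all tested genes. Members without a CPE in this window were among both, and a link between the CPE and the order was not tested. A polyadenylation signal, AATAAA or ATTAAA, lay in the same window of 24 of 26 members (92.3%), against 79.4% of all tested genes. A match to these letters is a description of the sequence and was not tested as a site. The stretches below belong to the 3 members called higher in WT MII oocytes, with the CPE of Nup98 and Nup62 in capitals, and, for Ahctf1, which had no CPE in this window, its polyadenylation signal. They lie at chr7:102119468-102119497 on the minus strand, chr7:44830713-44830742 on the plus strand and chr1:179744900-179744929 on the minus strand, in the order given.
Nup98: tTTTTATtaaaaaatatatatatatatata
Nup62: tcatgtctaTTTTATttctctgcactctat
Ahctf1: tacaagtagcacAATAAAaaaaactgacaa

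The deposited values are FPKM, footprints scaled to coding length and library size, so they compare genes per length and hold the amount of mRNA and its translation together. For each library 1 read is worth a fixed step of FPKM, and whole numbers of reads could be recovered for all 30 members within 0.02 reads. The recovered libraries were small, from 94309 reads in WT FGO replicate 1 to 331304 in Treat MII replicate 1. The members had between 3 and 1368 reads over the 6 libraries, with a median of 131, and 11 of 30 had under 60. Footprints on the 30 genes made up 0.357% and 0.388% of all reads in the WT FGO libraries, 0.538% and 0.518% in WT MII and 0.588% and 0.552% in Treat MII. Both WT FGO libraries thus lay below all 4 MII libraries. The 95% Wilson intervals, which cover counting error only, reached from 0.321% to 0.427% over the WT FGO libraries and from 0.489% to 0.614% over the MII libraries.

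The summed level of 12 oocyte markers was 20064 to 56008 FPKM over the libraries, but the single markers went different ways. Oosp1 stood at 122 and 185 FPKM in WT FGO and 11263 and 15029 in WT MII, while Zp2 stood at 8407 and 4037 in WT FGO and 774 and 856 in WT MII. Figla was at 0 in both WT MII libraries, and Dazl was at 0 in WT FGO replicate 2. Genes of granulosa and cumulus cells, which surround the oocyte, were uneven: 18 of 18 were in the table, 1 of them at 0 in all libraries, and their summed level was 978 and 2614 FPKM in the WT FGO libraries, 2265 and 439 in WT MII, and 346 and 364 in Treat MII. WT FGO replicate 2 held most of Inha (747 against 29.0 FPKM in replicate 1) and Gja1 (740 against 92.5). Hsd17b1 went the other way in WT FGO, at 730 FPKM in replicate 1 and 488 in replicate 2. In WT MII replicate 1 it made up most of the sum, at 1956 FPKM. Kitl stood at 168 FPKM in that library against 32.3 in WT MII replicate 2, while Inha stood at 11.0 and Gja1 at 0. The library with the larger sum in each of these groups, WT FGO replicate 2 and WT MII replicate 1, is therefore left out in turn beside the results. The Treat MII libraries resembled each other most, with a Spearman rho of 0.959 over genes with 60 or more reads against 0.850 within WT FGO and 0.853 within WT MII.

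**Figure D1:**
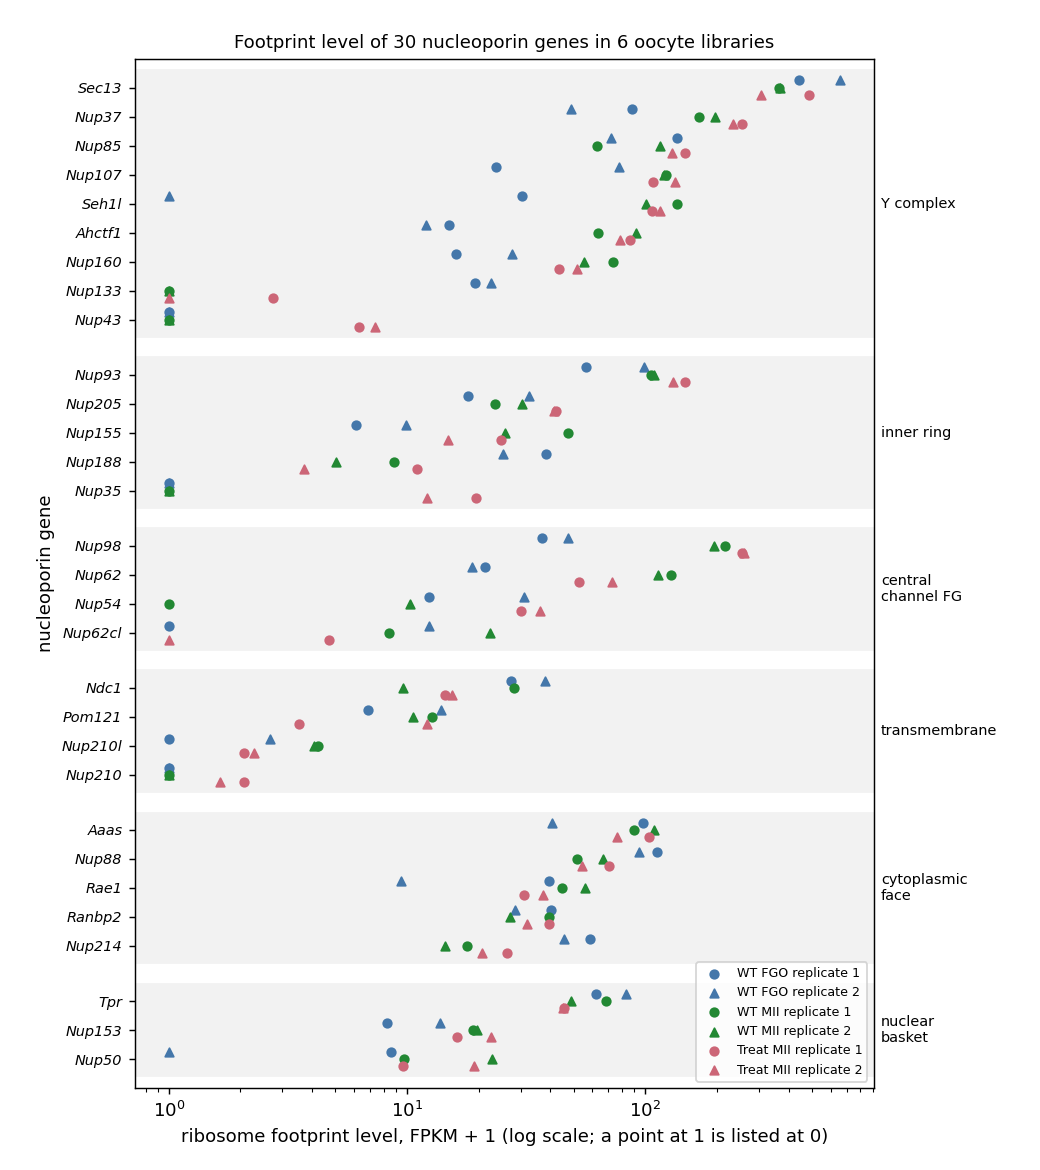
Ribosome footprint level of each nucleoporin gene, as FPKM + 1 on a log axis, in the 6 libraries, grouped by subcomplex (blue WT FGO, green WT MII, red Treat MII, circles replicate 1, triangles replicate 2). Sec13 has the highest mean level in every group, and the blue points of Nup98, Nup62 and Ahctf1 lie apart from the green and red ones.

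The first question was how nucleoporin footprints changed over the GV–MII transition. Nup98, Nup62 and Ahctf1 rose from WT FGO to WT MII, and no member was called lower. The 3 encode a mobile FG nucleoporin, the central FG nucleoporin of the channel and the chromatin-binding subunit of the Y complex. In limma, fitted on log2(FPKM + 1) over the 15127 genes whose mean was 1 FPKM or more, 29 of 30 members were tested and 3 had an adjusted p under 0.05 with a higher level, against 3.67% of all tested genes called higher. The count of members called lower was 0, against 3.09% of all tested genes. At an unadjusted p under 0.05 there were 7 members higher and 3 lower, against 9.65% and 13.1% of all tested genes. With precision weights on the recovered reads, a setting chosen after seeing the data, limma called 5 higher and 3 lower, against 5.52% and 10.8% of the 14555 genes fitted. With genes limited to 60 or more recovered reads it called 6 of 19 members higher and 2 lower, against 27.5% and 18.8% of 2706 genes. In all of these the share of members called lower was under that of all genes, but it rests on 0 to 3 members. With precision weights the shares were close, and the difference was not tested in any setting.

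Nup98 stood at 35.9 and 46.6 FPKM in WT FGO, 216 and 193 in WT MII, and 254 and 258 in Treat MII. These values rest on 19 and 28, 200 and 250, and 472 and 399 reads, the most of any member. All 4 MII libraries lay above both WT FGO libraries. The mean rose from 41.2 ± 7.52 to 205 ± 16.3 FPKM (SD, n = 2 each), a log2 change of 2.29 with a standard error of 0.34 (limma, adjusted p = 0.0184). The gene (ENSMUSG00000063550.8, chr7:102119398-102210176, minus strand) encodes a precursor that is cut into Nup98 and Nup96, a subunit of the Y complex, so that a gene total cannot tell the 2 products apart.

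Nup62 stood at 20.2 and 17.7 FPKM in WT FGO, 127 and 113 in WT MII, and 51.6 and 71.3 in Treat MII. The WT FGO values rest on 3 reads in each library, the WT MII values on 33 and 41. The 3 groups did not overlap, with WT FGO lowest, Treat MII between and WT MII highest. The log2 change from WT FGO to WT MII was 2.60 with a standard error of 0.44 (limma, adjusted p = 0.0269). The ratio of pooled reads was 6.28, with a 95% counting interval from 2.75 to 17.7. Nup62 (ENSMUSG00000109511.1) spans chr7:44816088-44830812 on the plus strand, and both its G-quadruplex motif and its CPE shown above lie in the last part of this span.

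Ahctf1, also known as ELYS, brings the Y complex to chromatin when pores are rebuilt. It stood at 14.1 and 11.0 FPKM in WT FGO, 62.6 and 90.7 in WT MII, and 85.5 and 77.6 in Treat MII, from 9 and 8, 70 and 142, and 192 and 145 reads. WT MII and Treat MII overlapped, and both lay above WT FGO. The log2 change from WT FGO to WT MII was 2.51 with a standard error of 0.48 (limma, adjusted p = 0.0373). Its gene (ENSMUSG00000026491.13) lies at chr1:179744894-179803680 on the minus strand.

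These 3 calls were lost when only the compared groups were fitted, without the mean-variance trend of limma, with the treated libraries averaged and without either Treat MII library. Over all alternatives the adjusted p ranged from 4.394e-07 to 0.124 for Nup98, from 0.00453 to 0.116 for Nup62 and from 0.00011 to 0.158 for Ahctf1, and the change kept its sign throughout. Without WT FGO replicate 2, which had the larger granulosa sum of its group, the log2 changes were 2.48, 2.51 and 2.34. Nup62 was not called without WT MII replicate 1 (adjusted p = 0.065) or without replicate 2 (adjusted p = 0.0565), Ahctf1 was not called without replicate 2 (adjusted p = 0.0609), and Nup98 was called without either (limma).

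Outside these calls, the order of the libraries was counted for all members tested. In 13 of 29 both WT MII libraries lay above both WT FGO libraries (44.8%), against 15.3% of all tested genes. In 6 of 29 both lay below (20.7%), against 25.8% of all tested genes. These shares are not matched for reads: 19 of 29 members but 2706 of 15127 genes had 60 or more. A gene at 0 in both groups counts as overlapping. The median log2 change over the tested members was 0.53, against −0.44 over all tested genes. Among genes with 60 or more reads in all, the medians were 0.65 for 19 members and 0.23 for 2706 genes. With members at a floor of 3 reads per library where a group was at 0, and without those at or under the floor in both groups, the median was 0.65 over 27.

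**Figure D2:**
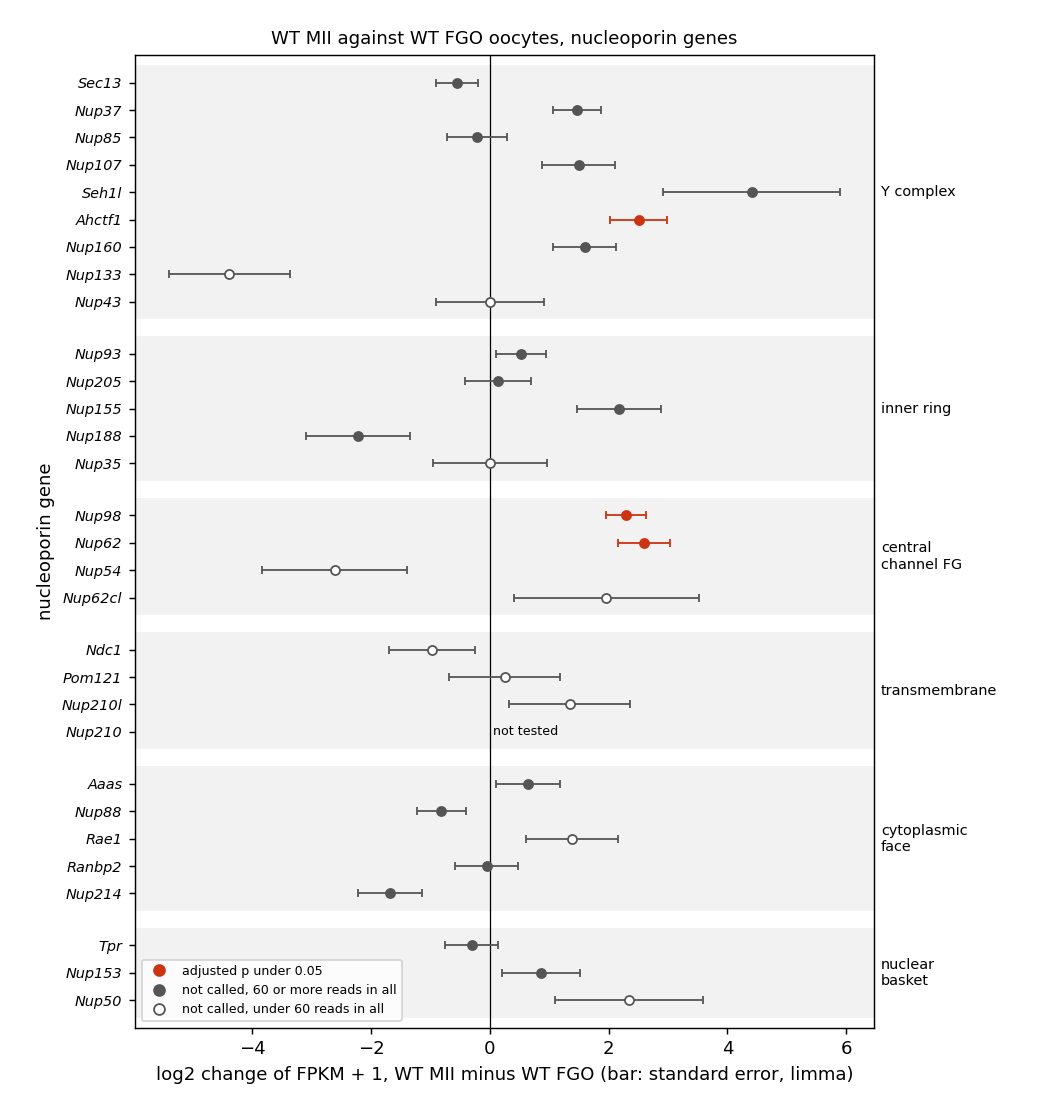
Log2 change of FPKM + 1 from WT FGO to WT MII for each nucleoporin gene by subcomplex, with the standard error from limma as bars. Red points (Ahctf1, Nup98, Nup62) have an adjusted p under 0.05, open points have under 60 reads over all libraries, and Nup210 was not tested.

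Within the Y complex the fitted changes had both signs, and a difference between subunits was not tested. Of 9 subunits 1 was called higher, Ahctf1, and 0 lower. The median log2 change over the 9 was 1.47, with 5 positive, 3 negative and 1 at 0. Sec13, which is also a subunit of the COPII coat of secretory vesicles, was the most abundant nucleoporin gene in all 3 groups, at 439 and 656 FPKM in WT FGO, 364 and 368 in WT MII, and 484 and 304 in Treat MII. Both WT MII values lay below both WT FGO values, and the log2 change of −0.55 ± 0.35 (standard error) did not pass the test (limma, adjusted p = 0.459).

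Nup37, a small subunit of the same complex, stood at 86.7 and 47.7 FPKM in WT FGO, 167 and 195 in WT MII, and 253 and 234 in Treat MII. The groups followed that order without overlap, and the log2 change from WT FGO to WT MII was 1.47 ± 0.40 (standard error; limma, adjusted p = 0.0922). Nup107, Nup160, Seh1l and Nup133 fall outside the rule for naming genes and were chosen after their values were seen. Nup107 stood at 22.7 and 76.7 FPKM in WT FGO and 121 and 119 in WT MII (log2 change 1.50, limma, adjusted p = 0.221). This value moved with the WT FGO library that was kept, and was 2.35 without replicate 2 (adjusted p = 0.0223) and 0.64 without replicate 1 (adjusted p = 0.184), and precision weights also called it higher (adjusted p = 0.0437). Nup160 stood at 15.1 and 26.6 FPKM in WT FGO and 72.1 and 54.6 in WT MII (log2 change 1.59, limma, adjusted p = 0.139). Nup160 and Nup37 were called higher with genes limited to 60 or more reads, and Nup37 also without WT FGO replicate 1, with a log2 change of 1.90.

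Seh1l, shared with the nutrient-sensing complex GATOR2, had 3 and 0 reads in WT FGO, and 24 and 25 in WT MII. The fitted log2 change of 4.41 had a standard error of 1.49 (limma, adjusted p = 0.147), and the ratio of pooled reads was 8.32, with a 95% counting interval from 2.68 to 41.7. Limma called Seh1l higher without WT FGO replicate 1 (log2 change 6.87, adjusted p = 0.00418), without replicate 2 (1.94, adjusted p = 0.0474) and with precision weights (3.24, adjusted p = 0.00795), and its size moved with the WT FGO library that was kept. Nup133, a stalk subunit of the Y complex, went the other way. It had 6 and 8 reads in WT FGO (18.4 and 21.5 FPKM), 0 in both WT MII libraries, and 2 and 0 in Treat MII. Against a floor of 3 reads per library this is at least 4.43-fold lower in WT MII (limma, adjusted p = 0.0616), and the call was made with precision weights and in no other setting. Nup85 stood between 61.6 and 146 FPKM with overlapping WT FGO and WT MII libraries, and Nup43 was listed at 0 in all 4 control libraries.

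The inner ring showed a similar split, with 0 of 5 members called in either direction (limma), 1 of them, Nup155, higher and 1, Nup188, lower at an unadjusted p under 0.05. With precision weights Nup188 was called lower. Nup93, which recruits other scaffold nucleoporins, was the most abundant, at 55.6 and 97.8 FPKM in WT FGO, 105 and 108 in WT MII, and 146 and 130 in Treat MII. Its groups did not overlap, and the log2 change to WT MII was 0.53 ± 0.42 (standard error; limma, adjusted p = 0.491). Nup205 stood at 17.1 and 31.6 FPKM in WT FGO, 22.5 and 29.4 in WT MII, and 41.4 and 40.4 in Treat MII, so that only the treated libraries stood apart.

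Nup155 and Nup188 were also named after their values were seen. Nup155, a membrane-binding scaffold subunit, stood at 5.08 and 8.94 FPKM in WT FGO and 46.5 and 24.9 in WT MII (log2 change 2.17, limma, adjusted p = 0.133). Nup188, a large scaffold protein related to Nup205, stood at 37.3 and 24.2 FPKM in WT FGO and 7.86 and 4.01 in WT MII (log2 change −2.22, limma, adjusted p = 0.199). In Treat MII Nup188 stood at 10.1 and 2.69 FPKM, overlapping WT MII. With genes limited to 60 or more recovered reads, limma called Nup155 higher and Nup188 lower. A transcript annotated as Gm28038 overlaps coding exons of Nup188, so its reads may be split. Nup35 was listed at 0 in all 4 control libraries.

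As grouped here, the FG nucleoporins of the channel were the subcomplex with the largest difference in summed level between WT FGO and WT MII. The sum over its 4 genes was 67.5 and 106 FPKM in WT FGO, 350 and 336 in WT MII, and 339 and 365 in Treat MII, and Nup98 and Nup62 supplied most of it. As a part of the summed level of all 30 genes it went from 5.91% in WT FGO to 18.01% in WT MII and 17.2% in Treat MII. The ranking depends on the grouping, because the Nup98 gene, counted here in full, also encodes Nup96 of the Y complex. The mean Y complex sum went from 836 FPKM in WT FGO to 1013 in WT MII. That sum includes Sec13, whose mean went from 548 to 366 FPKM. Nup54, a partner of Nup62 in the channel, stood at 11.4 and 30.1 FPKM in WT FGO, 0 and 9.32 in WT MII, and 29.2 and 35.1 in Treat MII. Of its coding stretches of 28 bases, 48.4% occur in other genes too, so its count is uncertain. Nup62cl, a relative of Nup62, had 7 reads in all. Nupl1, the symbol for the remaining partner, Nup58, was listed at 0 in all libraries.

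The transmembrane members had few reads, from 3 for Nup210 to 43 for Ndc1 over all libraries. Of the 4 transmembrane genes 3 were tested and 0 called by limma, with 0 at an unadjusted p under 0.05. Ndc1, a membrane anchor of the scaffold, stood at 26.3 and 36.9 FPKM in WT FGO, 27.0 and 8.58 in WT MII, and 13.5 and 14.4 in Treat MII, from 4 to 9 reads in each library. Pom121 stood at 5.89 and 12.9 FPKM in WT FGO, 11.8 and 9.62 in WT MII, and 2.52 and 11.1 in Treat MII, with overlapping groups. Nup210l had 12 reads in all, and Nup210 had 3, all in Treat MII, and was under the level for testing.

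In the basket 0 of 3 members were called (limma), and 0 passed an unadjusted p of 0.05. Tpr, the long coiled-coil protein that forms the basket, stood at 61.0 and 81.7 FPKM in WT FGO, 67.2 and 48.0 in WT MII, and 44.6 and 44.2 in Treat MII. The WT groups overlapped, and both Treat MII values lay below the others. Nup153, which ties the basket to the ring, stood at 7.25 and 12.8 FPKM in WT FGO, 17.97 and 18.8 in WT MII, and 15.1 and 21.5 in Treat MII. Nup50 had 21 reads in all, and 21.5% of its coding stretches are shared with other genes.

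On the cytoplasmic face the members leaned both ways, and 0 of 5 were called (limma), with Nup214 lower at an unadjusted p under 0.05. Aaas, the product of the gene mutated in triple A syndrome, stood at 96.9 and 39.7 FPKM in WT FGO, 88.6 and 108 in WT MII, and 103 and 75.1 in Treat MII, with all groups overlapping. Nup88, which holds Nup214 on the pore, stood at 111 and 93.6 FPKM in WT FGO, 50.7 and 65.2 in WT MII, and 69.4 and 53.1 in Treat MII. Both MII groups lay below WT FGO, and the log2 change to WT MII was −0.81 ± 0.42 (standard error; limma, adjusted p = 0.333).

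Nup214, the docking site for the mRNA export helicase Ddx19, was named after its values were seen. It stood at 57.5 and 44.8 FPKM in WT FGO, 16.9 and 13.4 in WT MII, and 25.3 and 19.7 in Treat MII, 3 groups without overlap. The log2 change to WT MII was −1.69 ± 0.54 (standard error; limma, adjusted p = 0.13), and limma called it lower with genes limited to 60 or more reads and with precision weights. Ranbp2, the SUMO ligase of the cytoplasmic filaments, ranged from 26.0 to 39.4 FPKM over the 6 libraries with overlapping groups. Rae1 had 49 reads in all, and 22.6% of its coding stretches are shared with another gene.

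**Figure D3:**
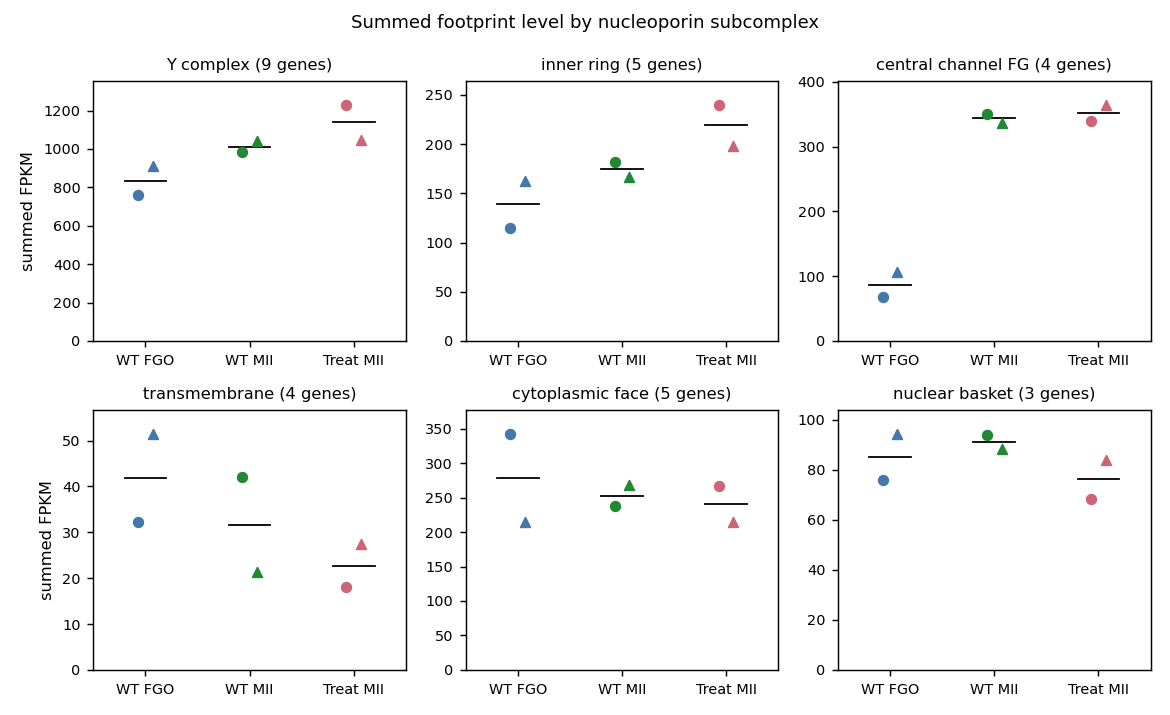
Summed FPKM of the members of each subcomplex in every library, with the group mean as a line (blue WT FGO, green WT MII, red Treat MII, circles replicate 1, triangles replicate 2; each axis starts at 0). The central channel FG genes sum to 67.5 and 106 FPKM in WT FGO and to between 336 and 365 in the 4 MII libraries, while sums on the cytoplasmic face overlap across groups.

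The second comparison, Treat MII against WT MII, asked whether the ligand altered footprints on these genes. No member was called. By limma 0 of 29 were higher and 0 lower, and so were 0% of all tested genes higher and 0% lower. At an unadjusted p under 0.05 limma gave 3 members higher and 0 lower, against 3.81% and 2.02% of all tested genes, and with precision weights it called 0 members in either direction, against 0.447% of the genes fitted higher and 0.687% lower. The median log2 change over the members was −0.017 against 0 over all tested genes. In 9 of 29 members both Treat MII libraries lay above both WT MII libraries (31.0%), against 16.2% of all tested genes, and in 7 of 29 both lay below (24.1%), against 15.6%. Here too the shares are not matched for reads.

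Nup62 had the largest difference among members with 60 or more reads. Its mean was 120 ± 10.1 FPKM in WT MII and 61.5 ± 13.9 in Treat MII (SD, n = 2 each), a log2 change of −0.97 with a standard error of 0.44 (limma, adjusted p = 0.919, unadjusted p = 0.0718). From the pooled reads the ratio of WT MII to Treat MII was 1.96, with a 95% counting interval from 1.37 to 2.81. The interval covers counting error in these libraries and does not compare the conditions. The other channel FG gene with many reads went the other way: Nup98 was 1.25-fold higher in Treat MII, with both libraries above both WT MII libraries and a log2 change of 0.32 ± 0.34 (standard error; limma, adjusted p = 0.976). Nup188, the other member with a 3′-UTR motif, overlapped between the groups, as did Ahctf1, with a log2 change of 0.11 ± 0.48 (standard error; limma, adjusted p = 1). Seh1l, the member with a 5′-UTR motif, also overlapped, with means of 117 FPKM in WT MII and 110 in Treat MII. Its log2 change was −0.08 with a standard error of 1.49 (limma).

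The 3 members with the smallest unadjusted p were Nup35, Nup43 and Nup54. Nup35, a membrane-binding subunit of the inner ring, had 0 reads in all WT MII and WT FGO libraries and 6 and 3 in Treat MII, 18.6 and 11.2 FPKM (log2 change 3.95, limma, adjusted p = 0.709). Of its coding stretches 97.1% also occur in Gm4353, so these reads cannot be placed on Nup35 alone. Nup43, a small Y complex subunit, had 0 reads in the control libraries and 2 in each Treat MII library (log2 change 2.77, limma, adjusted p = 0.836).

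Nup54 had 0 and 4 reads in WT MII and 18 in each Treat MII library, a ratio of pooled reads of 5.87 with a 95% counting interval from 2.10 to 22.7 (log2 change 3.36, limma, adjusted p = 0.836). The Treat MII libraries were deeper, at 331304 and 275604 reads against 164972 and 230907 in WT MII. The floor of 3 reads per library stood at 16.0 FPKM for Nup35 and 13.7 for Nup43 in WT MII, above their mean of 14.9 and 5.83 FPKM in Treat MII, so neither difference was detectable at this depth. Nup35 and Nup43 passed the threshold when the treated libraries were averaged or when 1 of them was left out, fits in which every remaining control value was 0.

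**Figure D4:**
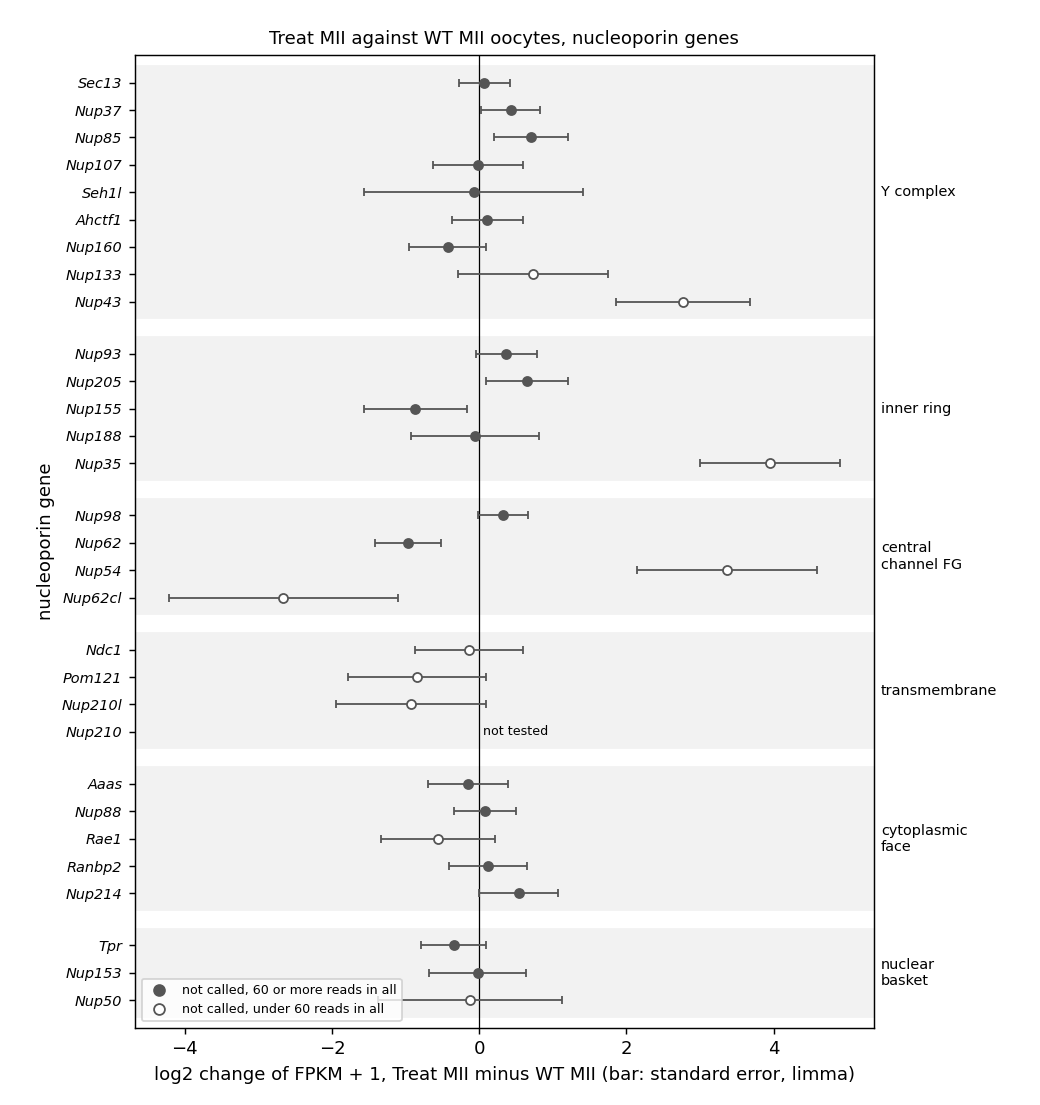
Log2 change of FPKM + 1 from WT MII to Treat MII for each nucleoporin gene by subcomplex, with the standard error from limma as bars. None has an adjusted p under 0.05, and the largest positive values, for Nup35, Nup54 and Nup43, are open points with under 60 reads over all libraries.

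The comparison of Treat MII with WT FGO shares libraries with both others and is given beside them. Nup98 and Ahctf1 were called higher and no member lower (limma), 2 and 0 of 29 against 2.86% and 1% of all tested genes. At an unadjusted p under 0.05 there were 7 members higher and 2 lower, against 9.51% and 10.4% of all tested genes, and with precision weights 5 higher and 3 lower, against 5.83% and 13.7% of the genes fitted. The log2 changes were 2.62 for Nup98 (limma, adjusted p = 0.0154), 2.62 for Ahctf1 (adjusted p = 0.0437) and 1.63 for Nup62 (adjusted p = 0.114). Neither call was made when any 1 of the 4 MII libraries was left out, without the mean-variance trend, with only the compared groups or with the treated libraries averaged. In the fits with 1 treated library left out or both averaged, Nup35 and Nup43 were the members called instead. In 14 of 29 members both Treat MII libraries lay above both WT FGO libraries (48.3%), against 16.6% of all tested genes, and in 6 both lay below (20.7%), against 28.9%. Again the shares are not matched for reads. The median log2 change was 0.79 for the members and −0.53 for all tested genes. Among genes with 60 or more reads in all it was 0.84 for 19 members and 0.13 for 2706 genes.

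Genes that work with the pore were read from a list of 23 transport partners, all in the table and 21 tested. Over maturation 4 were called higher and 1 lower (limma), against 3.67% and 3.09% of all tested genes, and between Treat MII and WT MII 0 were called in either direction. Gle1, which activates the export helicase at the cytoplasmic face, rose from 5.06 and 4.45 FPKM in WT FGO, 1 read each, to 263 and 297 in WT MII, and stood at 332 and 381 in Treat MII (log2 change 5.61 from WT FGO to WT MII, limma, adjusted p = 0.00193). The ratio of its pooled reads was 59.8, with a 95% counting interval from 16.4 to 497. Ddx19a, encoding that helicase, fell from 296 and 299 FPKM in WT FGO to 67.6 and 30.2 in WT MII (log2 change −2.69, limma, adjusted p = 0.0373). Its near copy Ddx19b can share reads with it.

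The remaining calls were all higher. Mad2l1, the spindle checkpoint protein that is stored at pores in interphase, rose from 224 and 212 FPKM to 917 and 1394 (log2 change 2.37, limma, adjusted p = 0.00793). Eny2 and Mcm3ap, subunits of the TREX-2 export complex at the basket, rose by log2 changes of 2.13 (adjusted p = 0.0283) and 2.06 (adjusted p = 0.0426). Of 17 alternative settings, the call was made in 13 for Gle1, 10 for Mad2l1, 9 for Mcm3ap, 8 for Eny2 and 7 for Ddx19a. Eny2 and Ddx19a were not called when any 1 of the 6 libraries was left out, Gle1 without either Treat MII library, Mad2l1 without either WT FGO or Treat MII library, and Mcm3ap without either WT MII or Treat MII library. Ran and its exchange factor Rcc1, which set the direction of transport, did not pass the test, with 28.1 to 129 FPKM for Ran and 6.95 to 69.9 FPKM for Rcc1 over the 6 libraries. Nutf2, the import factor for Ran, was listed at 0 in all libraries.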

How the data were processed

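Ribo-lite libraries of mouse oocytes, 2 each of WT FGO, WT MII and Treat MII, were analysed from the FPKM values deposited by the authors. Per the labels, reads were trimmed with cutadapt 1.14 and aligned with Bowtie2 2.2.2 and STAR 2.5.3a, with genome build mm10. The roles of the tools, the counting program and its annotation are not given in the sources used here, and no scaling to added RNA is stated, so levels are relative within a library.

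The 26 surplus entries of repeated gene names were left out, and the entry listed first for each name was kept. Reads were recovered from FPKM steps with GENCODE release 21 coding lengths, and 98.4% of 21962 genes came out whole in all libraries within 0.02 reads. An added fit gave the values precision weights from these reads. The main test was limma 3.58.1 in R 4.3.3 on log2(FPKM + 1), all 3 groups in 1 fit, with a mean-variance trend, a minimum mean of 1 FPKM per gene, and Benjamini-Hochberg adjustment over 15127 genes at 0.05. A change on this scale can understate that of low genes. Where a library of a group is at 0, it can also exceed the ratio of pooled reads, as for Seh1l. Values in every library were given for members called in any comparison, the 2 most abundant of each subcomplex, and the 3 with the smallest p in the maturation and treatment comparisons. The members and lists were chosen with earlier results of these data known. Same-numbered libraries did not deviate together (correlations of 0.0342, 0.0189 and 0.0176 over 2706 genes), so numbers were not taken as pairs. Sample columns left unused were 0.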

Additional observations from a re-analysis of the deposited data

How the results depend on the processing

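The count of members called over maturation, 3 in the fit reported, was 8 with genes limited to 60 or more recovered reads and 8 with precision weights, and 1 with the replicate block, which here uses numbers that do not pair the libraries. It was 0 with only the compared groups, without the mean-variance trend and with the treated libraries averaged, and from 0 to 6 when 1 library was left out. For Treat MII against WT FGO, 2 in the fit reported, the count was 5 with 60 or more reads, 8 with precision weights, 1 with the replicate block, 0 with only the compared groups and 0 without the trend, and from 0 to 6 without 1 library. For Treat MII against WT MII, 0 in the fit reported, it was 2 with the treated libraries averaged and from 0 to 2 without 1 library. The replicate block left that count at 0. The cause of these differences was not tested. The median log2 change of the members over maturation was 0.99 with median centring, 0.84 with quantile normalization, and from 0.20 to 0.56 without 1 library, lowest without WT FGO replicate 1. Between Treat MII and WT MII the median was −0.13 with median centring, 0.09 with the treated libraries averaged, and from −0.017 to 0.18 without 1 library. Between Treat MII and WT FGO it was 1.35 with quantile normalization and from 0.49 to 1.12 without 1 library. Counts of members without overlap stayed within 1.5 times of the reported ones for members with a mean of 5 FPKM or more. Of the 28 changes of single genes refitted under the alternatives, that of Ahctf1 between Treat MII and WT MII changed sign, to −0.0043 with median centring and −0.15 without WT MII replicate 1, in a range from −0.15 to 0.37 without 1 library. Depth limits the 11 members with under 60 reads, for which a change could be read only where it is large.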
